A study of Mus musculus with 16 samples.

Results

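The expression of 10 genes of fat cells and of fatty acid synthesis (*Adipoq*, *Lep*, *Plin1*, *Cidec*, *Fabp4*, *Lipe*, *Ces1d*, *Pparg*, *Fasn* and *Scd1*) was examined in bulk RNA sequencing of mouse hamstring muscle, where they are 10 of the 26382 genes of the table. All 10 were found and all 10 passed the filter on low values. The genes were chosen from their measured levels in these same libraries, their differences between HRS and PBS legs and the high level in the PBS leg of mouse m866 included. Their own values are therefore given as a description, with intervals and with no test. Female C57BL/6 mice aged 8 to 10 weeks received recombinant murine histidyl-tRNA synthetase (HRS, the Jo-1 autoantigen) or PBS by intramuscular injection, and hamstrings were taken at day 14.

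The 16 libraries formed 4 groups. In mice m862 to m866, the sample titles assign HRS to the left leg (HRS leg, n = 5) and PBS to the right leg (contralateral PBS leg, n = 5). Mice m867 and m868 had PBS in both legs (PBS-only, n = 4 legs of 2 mice). The HRS-MBP group (n = 2) held a single library from each of mice m860 and m861, whose leg is not stated: the treatment label is HRS, and the titles name an MBP fusion protein at 2 to 3 mg/mL. The protocol describes 3 to 5 mg/mL HRS given to both sides (50 μL per side), unlike this assignment by leg. The treatment labels also mark the contralateral and PBS-only libraries as PBS, and left or right is given by the titles only. A PBS leg opposite an HRS leg shares its animal, and the 4 PBS-only legs come from only 2 animals.

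White adipocytes store triglyceride in a single large lipid droplet and release it as fatty acids when energy is needed. PPARG is the nuclear receptor that drives their differentiation, and adiponectin (*Adipoq*) and leptin (*Lep*) are hormones they secrete. Perilipin 1 (*Plin1*) and CIDEC coat and enlarge the droplet, hormone-sensitive lipase (*Lipe*) and carboxylesterase 1D (*Ces1d*) hydrolyse stored lipid, and FABP4 carries fatty acids in the cytosol. Fatty acid synthase (*Fasn*) makes palmitate from acetyl and malonyl units, and stearoyl-CoA desaturase 1 (*Scd1*) introduces the double bond that turns saturated into monounsaturated fatty acids. In skeletal muscle, adipocytes lie between fibres and fascicles and along vessels and nerves. FABP4 and PPARG are also found in endothelial cells and macrophages, and hormone-sensitive lipase is present in muscle fibres, so these genes are less restricted to fat than *Adipoq*, *Plin1* and *Cidec*. In bulk tissue, fewer adipocytes and less RNA per adipocyte cannot be told apart.

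Promoter windows (250 bases before to 50 after a start site, RefSeq, GRCm38.p6) were held for 7 of the 10 genes, in 11 windows; *Fabp4*, *Scd1* and *Ces1d* had none. Both strands were searched for the C/EBP element TTNNGNAA, the nuclear receptor motif AGGTCA, the direct repeats of AGGNCA with 1 base (DR1, the PPAR element) or 4 bases (DR4, the LXR element) between, and the sterol response element TCACNCCAC. AGGTCA can be part of either repeat. The C/EBP letters were found in 6 of the 11 windows, those of *Lep*, *Adipoq*, *Plin1*, *Cidec* (2 windows) and *Pparg* (1 of 3 windows), while 40.7% of all 32851 promoter windows held them. AGGTCA was in 2 windows, both of *Pparg*, against 16.3% of all windows. DR1, DR4 and the sterol element were in none of the 11, and in 0.381%, 0.253% and 1.24% of all windows. The 120 bases before 5 of the start sites are given to show the matches (capitals) in the adipocyte genes that were lower together and in *Pparg*, which was not.
Lep, chr6:29060101-29060220, plus strand, C/EBP letters on both strands from 55 bases before the start: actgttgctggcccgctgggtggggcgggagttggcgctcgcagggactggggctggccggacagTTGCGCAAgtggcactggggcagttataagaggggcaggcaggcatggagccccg
Adipoq, chr16:23146416-23146535, plus strand, C/EBP letters on the opposite strand from 81 bases before the start: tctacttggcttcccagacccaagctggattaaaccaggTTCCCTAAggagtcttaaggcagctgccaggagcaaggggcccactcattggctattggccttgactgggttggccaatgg
Plin1, chr7:79732777-79732896, minus strand, C/EBP letters on the opposite strand from 58 bases before the start: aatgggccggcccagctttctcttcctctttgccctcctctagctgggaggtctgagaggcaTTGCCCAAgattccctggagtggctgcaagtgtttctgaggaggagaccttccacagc
Pparg, chr6:115362229-115362348, plus strand, AGGTCA from 9 bases before the start: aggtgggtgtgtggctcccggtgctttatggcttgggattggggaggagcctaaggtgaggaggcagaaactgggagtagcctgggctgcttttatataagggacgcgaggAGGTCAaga
Pparg, chr6:115421946-115422065, plus strand, C/EBP letters from 16 bases before the start: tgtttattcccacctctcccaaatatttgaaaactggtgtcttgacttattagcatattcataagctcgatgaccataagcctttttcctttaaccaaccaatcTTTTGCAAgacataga

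Library totals lay between 726797 and 1252358 normalized counts, with an implied depth of 8595360 to 73939154 reads, and 3 reads were worth 0.0324 to 0.364 normalized counts. Muscle fibre genes were abundant in all libraries, with a summed level (8 genes) of 36429 to 152902 in HRS legs, 109166 to 174923 in contralateral PBS legs, 133518 to 168060 in PBS-only legs and 60287 to 60624 in HRS-MBP libraries. Macrophage genes (7 genes) summed to 976 to 4955 in HRS legs and 102 to 269 over the 9 PBS libraries. Both legs of mouse m866 stood apart. Its HRS leg had the lowest macrophage sum of the HRS legs (976 against 2179 to 4955 in the others), the lowest lymphocyte sum (10.3 against 25.1 to 82.6), the largest mitochondrial share (11.1% against 3.41% to 6.29%) and the highest muscle fibre sum (152902 against 36429 to 89373). Its PBS leg had the lowest muscle fibre sum of the PBS libraries, and the highest levels of each of the 10 genes described here. The main results are given with and without this mouse.

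The hormones *Adipoq* and *Lep* were lower in the HRS leg than in the PBS leg of the same animal in 5 of 5 mice. *Adipoq* (chromosome 16, 23146536 to 23158028, plus strand) had 22.3, 22.8, 3.82, 8.81 and 36.7 normalized counts in the HRS legs of m862 to m866, and 51.1, 37.6, 21.6, 47.1 and 344 in their PBS legs. PBS-only legs had 26.4 and 56.0 (m867, left and right) and 32.0 and 63.9 (m868), and the HRS-MBP libraries had 8.78 and 15.5. The HRS and contralateral ranges overlapped, with the HRS legs of m862, m863 and m866 above the PBS leg of m864, whereas both HRS-MBP libraries lay below all PBS-only legs. The contralateral level was 1.65 to 9.37 times that of the HRS leg within a mouse. *Lep* (chromosome 6, 29060220 to 29073877, plus strand) had 4.07, 2.60, 0.304, 1.44 and 13.3 in the HRS legs and 23.8, 6.03, 4.94, 12.5 and 124 in the opposite legs. It had 3.32, 18.9, 8.21 and 20.3 in PBS-only legs and 0.672 and 3.78 in HRS-MBP libraries. The lowest *Lep* value, in the HRS leg of m864, was still above the worth of 3 reads in that library, and the left leg of m867 overlapped with the HRS groups.

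The droplet coat genes followed the hormones. *Plin1* (chromosome 7, 79720218 to 79732903, minus strand) had 26.3, 23.7, 3.98, 10.4 and 49.2 normalized counts in HRS legs and 56.1, 31.9, 19.95, 53.4 and 391 in the PBS legs of the same mice. Levels of 32.4, 73.2, 52.5 and 63.4 were found in PBS-only legs, and of 10.8 and 21.4 in HRS-MBP libraries. *Plin1* was lower in the HRS leg of 5 of 5 mice, by the smallest ratio in m863 (1.35) and the largest in m866 (7.95). *Cidec* (chromosome 6, 113424634 to 113435760, minus strand) had 15.4, 13.2, 2.45, 6.57 and 38.0 in HRS legs and 32.4, 23.4, 17.5, 32.1 and 252 in the opposite legs. PBS-only legs had 19.9, 38.7, 17.5 and 36.9, and HRS-MBP libraries 8.29 and 18.6. *Cidec* was also lower in the HRS leg of 5 of 5 mice, and its highest HRS value, again in m866, lay within the PBS-only range.

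**Figure D1:**
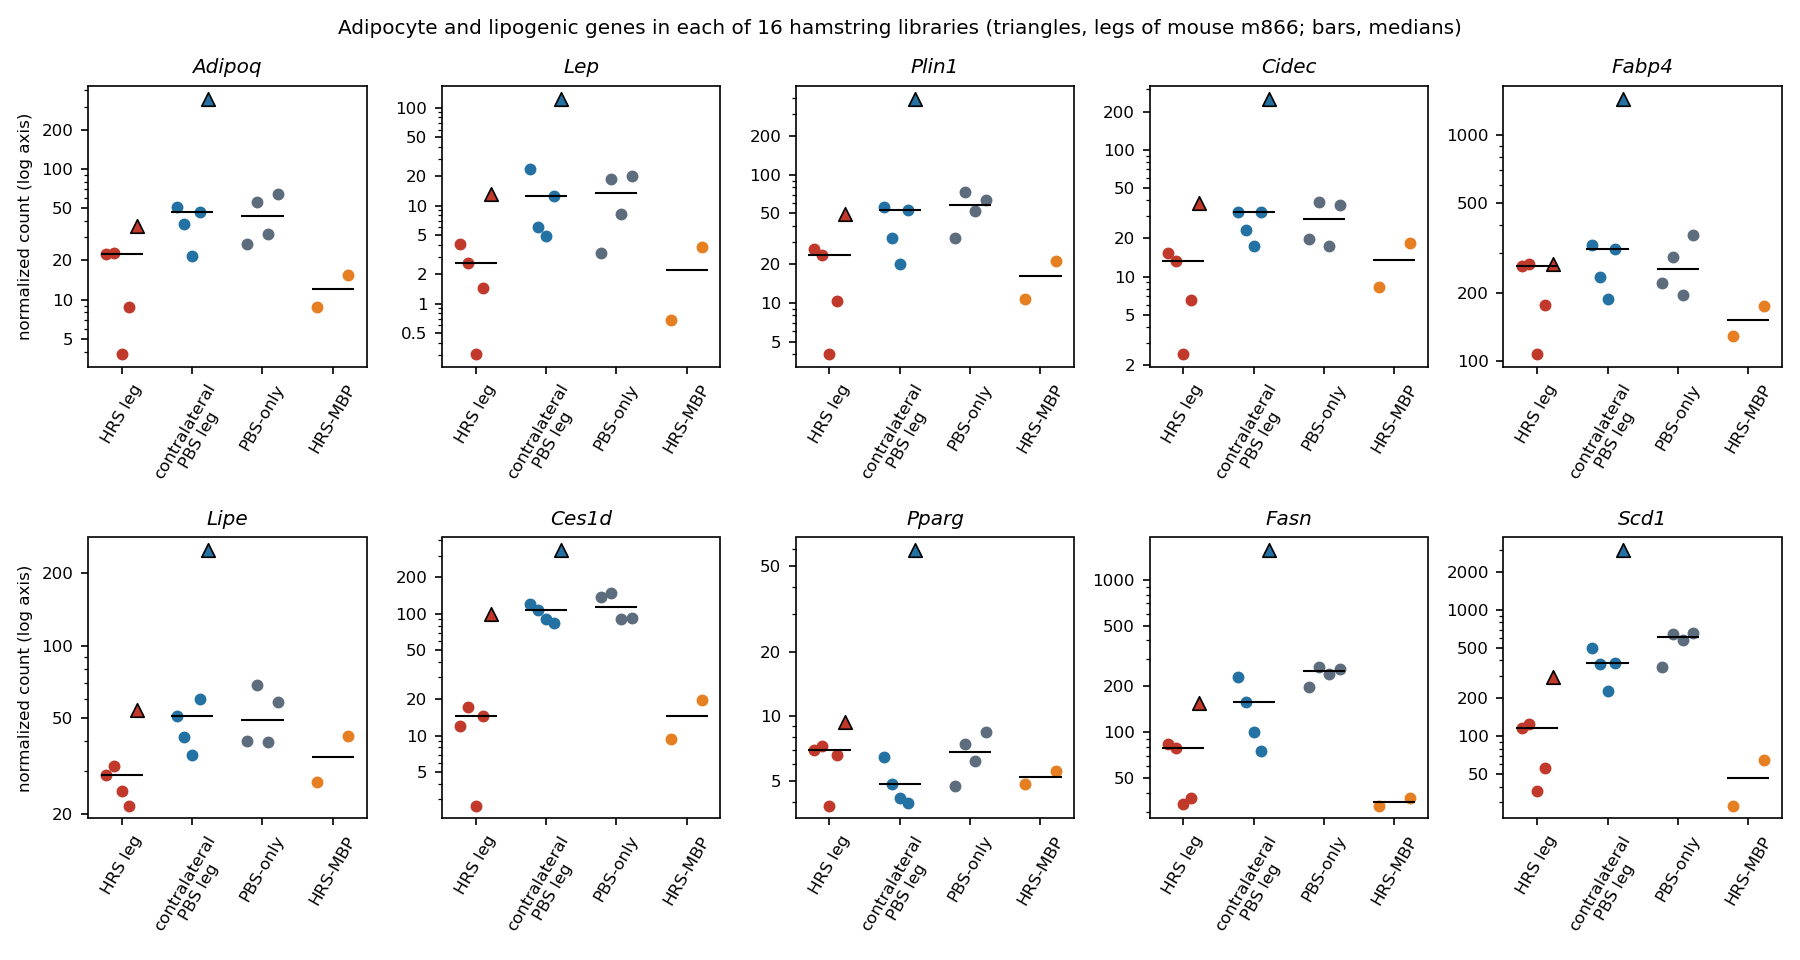
Normalized counts (log axis) of the 10 genes in each of the 16 libraries, in 4 groups; points are libraries, triangles are the 2 legs of mouse m866, and bars are group medians. The PBS leg of m866 is the highest library in every panel, with *Adipoq* at 344 and *Scd1* at 2970 normalized counts.

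Genes of fatty acid transport and lipid hydrolysis differed from each other. *Fabp4* (chromosome 3, 10204088 to 10208576, minus strand) had 263, 270.2, 107, 177 and 268 normalized counts in HRS legs and 327, 236, 189, 312 and 1451 in their PBS counterparts. PBS-only legs had 222, 288, 196 and 360.0, and HRS-MBP libraries 129.6 and 175. *Fabp4* was lower in the HRS leg of 4 of 5 mice, and 2 HRS legs (m864 and m865) and both HRS-MBP libraries lay below every PBS library. The other 3 HRS legs lay within the PBS range. *Lipe* (chromosome 7, 25379527 to 25398710, minus strand) had 28.9, 31.7, 24.95, 21.6 and 54.1 in HRS legs and 51.1, 41.9, 35.1, 60.1 and 249.1 in the opposite legs. It had 40.01, 68.6, 39.6 and 58.2 in PBS-only legs and 27.0 and 41.98 in HRS-MBP libraries. *Lipe* was lower in the HRS leg of 5 of 5 mice, and 4 of the 5 HRS legs lay below every PBS library. It overlaps 4732471J01Rik on the plus strand, and whether counting used the strand is not given in the sources used here.

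By the mean of log2 levels, *Ces1d* had the largest fold difference of the 10 genes between HRS and contralateral legs. This carboxylesterase gene (chromosome 8, 93166068 to 93197838, minus strand) had 12.02, 17.1, 2.66, 14.5 and 99.0 normalized counts in HRS legs and 119.7, 108, 90.9, 83.7 and 331 in contralateral PBS legs. PBS-only legs had 136, 149, 90.1 and 92.0, and HRS-MBP libraries 9.37 and 19.7. The HRS leg of m866 lay within the PBS range, whereas the other 6 HRS libraries were all under 20, below every PBS library. *Ces1d* differed least in m866 (PBS over HRS leg 3.35) and most in m864 (34.2). *Ces1d* overlaps Gm45909 on the same strand, and reads could have been split between them.

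The adipogenic regulator *Pparg* did not share this pattern. *Pparg* (chromosome 6, 115360951 to 115490399, plus strand) had 6.98, 7.25, 3.84, 6.64 and 9.41 normalized counts in HRS legs and 6.44, 4.83, 4.16, 3.97 and 59.2 in contralateral legs. Levels in PBS-only legs were 4.73, 7.42, 6.19 and 8.49, and 4.83 and 5.58 in HRS-MBP libraries. It was lower in the HRS leg of only 2 of 5 mice (m864 and m866), and all libraries but the PBS leg of m866 lay between 3.84 and 9.41. Among the 4 other mice the HRS leg was on average 0.31 higher on the log2 scale (SD 0.36, n = 4).

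The lipogenic enzymes were lower in HRS libraries, with the lowest group means in the HRS-MBP group, whose ranges overlapped those of the HRS legs. *Fasn* (chromosome 11, 120805846 to 120824547, minus strand) had 83.1, 78.1, 33.5, 37.0 and 156 normalized counts in HRS legs and 229, 158, 99.8, 75.5 and 1563 in the opposite legs. PBS-only legs had 198, 268, 239 and 262, all above every HRS leg, and HRS-MBP libraries had 32.9 and 36.9. Within a mouse *Fasn* was lower in the HRS leg in 5 of 5, by a ratio of 2.03 to 2.98 in m862 to m865 and 10.00 in m866. *Scd1* (chromosome 19, 44394455 to 44407879, minus strand) had 117, 125, 37.0, 55.9 and 294 in HRS legs and 504, 372, 229, 379.7 and 2970.4 in contralateral legs. PBS-only legs had 354, 642, 577 and 652, and HRS-MBP libraries 28.2 and 65.1. *Scd1* was lower in the HRS leg of 5 of 5 mice, by 2.98 to 10.1 times, and all 5 HRS legs lay below all 4 PBS-only legs, as they did for *Fasn* and for 5.18% of all tested genes.

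**Figure D2:**
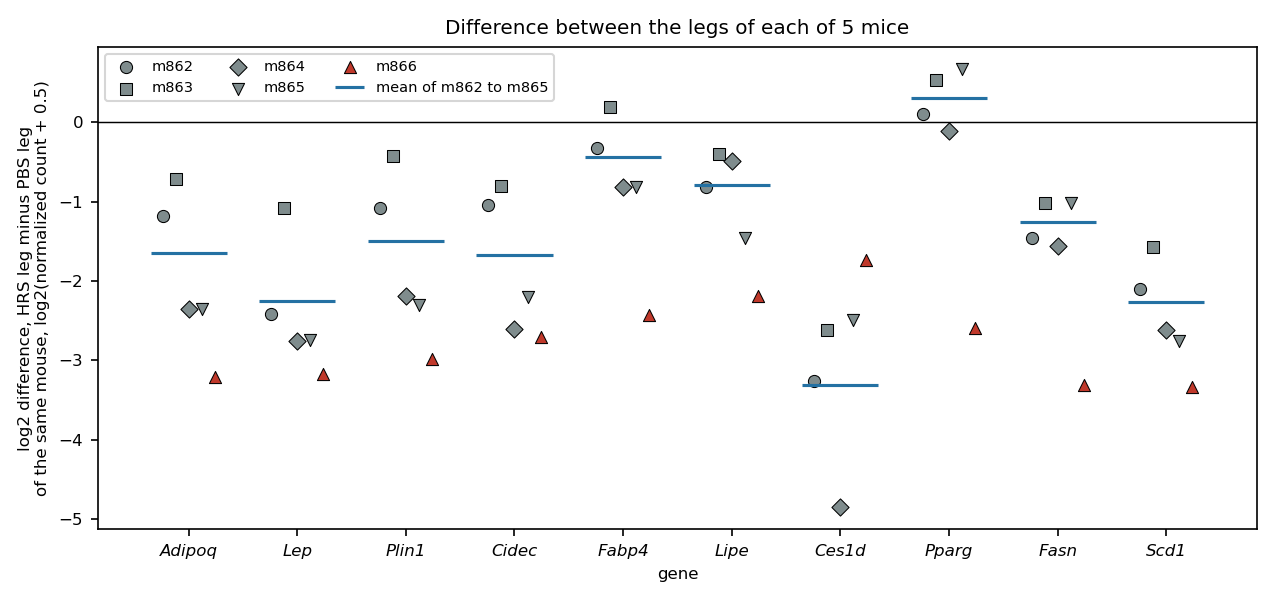
Difference between the HRS and the PBS leg of each of 5 mice, in log2(normalized count + 0.5), for the 10 genes; each point is 1 mouse, red triangles are m866, and blue bars are the mean of m862 to m865. *Scd1* lies between -3.33 and -1.57 in all 5 mice, whereas *Pparg* is above 0 in m862, m863 and m865.

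Between HRS and contralateral PBS legs, log2 fold changes were -2.99 ± 0.65 for *Ces1d* (SE; 95% interval -4.37 to -1.62), -2.48 ± 0.62 for *Scd1* (-3.79 to -1.16) and -2.43 ± 0.86 for *Lep* (-4.25 to -0.61). They were -1.96 ± 0.66 for *Adipoq*, -1.88 ± 0.69 for *Cidec*, -1.79 ± 0.70 for *Plin1*, -1.67 ± 0.63 for *Fasn* and -1.07 ± 0.42 for *Lipe*. The intervals of *Fabp4* (-0.84, -1.77 to 0.09) and *Pparg* (-0.27, -1.43 to 0.88) included 0. A gene was called when limma's Benjamini-Hochberg adjusted p was under 0.05 and the absolute log2 fold change above 1. By that rule 8 of the 10 genes were called lower, beside 6.27% of all 16414 tested genes, and no reading is drawn from this since the same contrast chose the genes. Values without both legs of m866 were -3.31 ± 0.42 for *Ces1d*, -2.26 ± 0.38 for *Scd1*, -1.65 ± 0.48 for *Adipoq* and 0.31 ± 0.21 for *Pparg*, whose direction turned, and 7 genes were called. Without only the PBS leg of m866, 3 were called (*Adipoq* at -1.32, *Ces1d* at -2.65 and *Scd1* at -1.86). The values of the 5 whose call was lost were then -1.71 for *Lep*, -1.22 for *Cidec*, -1.12 for *Plin1*, -0.95 for *Fasn* and -0.58 for *Lipe*. Without the HRS leg of m864, 2 were called (*Ces1d* and *Scd1*), and without that of m865, 3 (*Adipoq*, *Ces1d* and *Scd1*). With mouse as a random replicate block 4 were called, and with mouse as a fixed replicate block 8. Of all genes, 1029 were called lower in the main fit, 1748 without both legs of m866 and 1175 without only its PBS leg. This number was 556 without the HRS leg of m864, 875 without that of m865, and 1000 and 943 with the random and fixed blocks.

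Against PBS-only mice, HRS legs had log2 fold changes of -2.84 ± 0.69 for *Ces1d*, -2.46 ± 0.66 for *Scd1* and -1.85 ± 0.67 for *Fasn*. The adipocyte genes were closer to 0 than against contralateral legs, an order that turned without both legs of m866, with *Adipoq* at -1.48 ± 0.70, *Plin1* at -1.62 ± 0.75, *Cidec* at -1.28 ± 0.74 and *Lep* at -1.78 ± 0.91, and *Pparg* was at 0.00 ± 0.58. The difference between these comparisons was not tested, and they share the 5 HRS legs. Called lower were 3 of the 10 genes (*Ces1d*, *Fasn* and *Scd1*), beside 5.87% of all tested genes. With each PBS-only animal as 1 value (the mean of its legs), 2 were called (*Ces1d* and *Scd1*; *Fasn* was at -1.86 ± 0.91). After quantile normalization 6 were called, without only the PBS leg of m866 5, and without only its HRS leg 7. Of all genes, 1807, 975 and 1524 were called lower in these settings, against 963 in the main fit. Without both legs of m866, 7 were called, beside 1532 of all genes, and the values were -1.81 for *Adipoq*, -3.50 for *Ces1d* and -2.86 for *Scd1*.

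**Figure D3:**
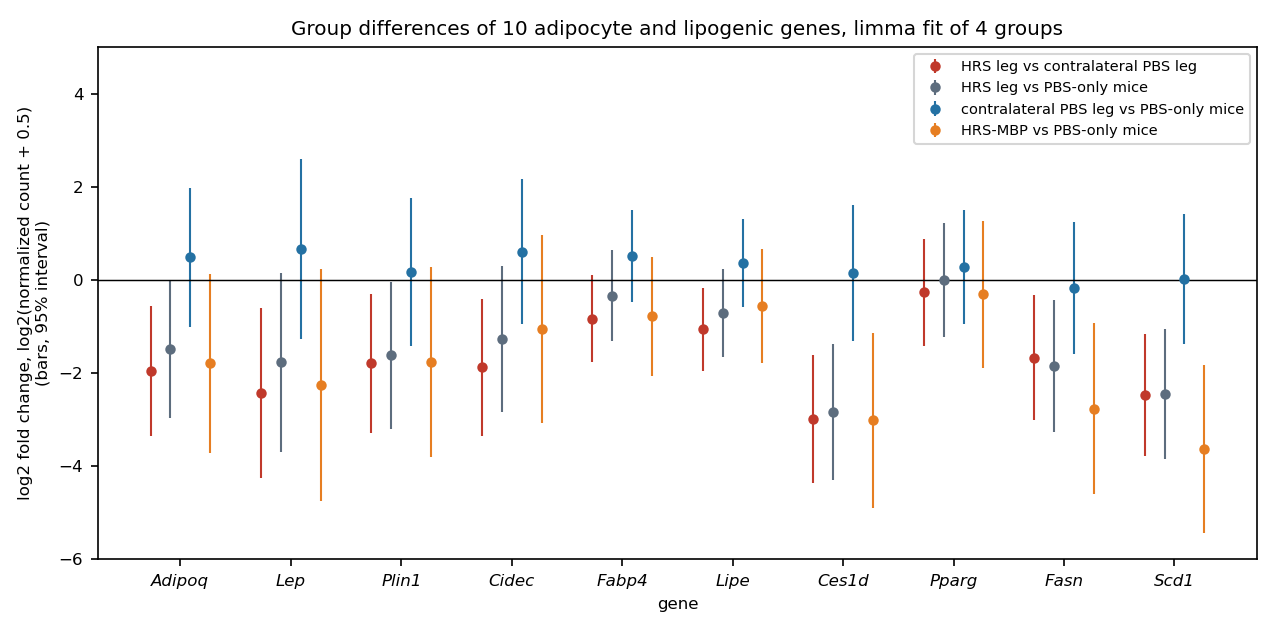
Log2 fold changes of the 10 genes on the log2(normalized count + 0.5) scale in 4 comparisons of the limma fit of 4 groups; points are estimates and bars 95% intervals, drawn from libraries that chose the genes. *Ces1d*, *Fasn* and *Scd1* lie below 0 with their intervals in the 3 comparisons of HRS or HRS-MBP with PBS, while the contralateral PBS leg against PBS-only mice has intervals around 0 for all 10 genes.

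Contralateral PBS legs and PBS-only legs were then compared. For the 10 genes, log2 fold changes ran from -0.18 (*Fasn*) to 0.66 (*Lep*), each with an interval that included 0 (for *Scd1* 0.01, -1.38 to 1.41, and for *Adipoq* 0.48, -1.004 to 1.96). None of the 10 was called in either direction by limma, beside 0.00609% of all genes (1 gene, with 902 at an unadjusted p under 0.05), and all 10 genes overlapped in range. All 10 intervals reached beyond a 2-fold higher level, and 6 beyond a 2-fold lower level (not those of *Cidec*, *Fabp4*, *Lipe* and *Pparg*). Without both legs of m866, 9 of the 10 values were below 0: *Adipoq* was at -0.16 ± 0.48, *Plin1* at -0.51 ± 0.50, *Pparg* at -0.42 ± 0.21, *Scd1* at -0.60 ± 0.38 and *Fasn* at -0.90 ± 0.33, and none of the 10 was called.

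The HRS-MBP libraries had the lowest group means of *Fasn* (34.9 ± 2.84, SD, n = 2) and *Scd1* (46.7 ± 26.0, n = 2), against 242 ± 31.8 and 556 ± 139 in PBS-only legs (n = 4). Log2 fold changes against PBS-only legs were -3.64 ± 0.85 for *Scd1*, -3.02 ± 0.89 for *Ces1d*, -2.77 ± 0.87 for *Fasn* and -1.80 ± 0.90 for *Adipoq*. Of the 10 genes, 6 (*Adipoq*, *Plin1*, *Fabp4*, *Ces1d*, *Fasn* and *Scd1*) had both HRS-MBP libraries below all PBS-only legs, as did 30.6% of all tested genes, and 3 (*Ces1d*, *Fasn* and *Scd1*) were called lower, beside 10.2% of all tested genes. Without library m860 only *Scd1* was called, without m861 *Ces1d* and *Scd1*, and without the PBS leg of m866, which enters through the shared spread, 5. HRS-MBP and HRS legs were not separated for any of the 10 genes. The values reached -1.18 ± 0.82 for *Scd1* and -0.92 ± 0.84 for *Fasn*, with intervals of -2.92 to 0.56 and -2.69 to 0.86, and 0 of 10 were called by limma, beside 0.463% of all genes (2371 genes had an unadjusted p under 0.05). Taking all 7 HRS against all 9 PBS libraries, the values were -2.98 ± 0.49 for *Ces1d*, -2.81 ± 0.49 for *Scd1*, -2.01 ± 0.49 for *Fasn* and -1.84 ± 0.50 for *Adipoq*. In that comparison 7 genes were called lower (not *Fabp4*, *Lipe* or *Pparg*), beside 7.05% of all genes (1157), and 7 without both legs of m866, beside 1683 of all genes. With the mean of 18 other adipocyte markers as a covariate, 1 stayed called lower here (*Ces1d*) and 0 between HRS and contralateral legs, beside 624 and 308 of all genes. *Pparg* moved from -0.24 to 1.22 here and from -0.27 to 1.29 between HRS and contralateral legs. The markers were themselves lower in HRS libraries, so that a gene near level can be moved upward by this adjustment. No reading is drawn from it.

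To set the genes beside the amount of adipocyte RNA in each library, the mean log2 level of *Adipoq*, *Plin1* and *Cidec* was subtracted from each of the other 7. This quantity is a difference of log2 values and has no test. *Scd1* stayed lower in HRS libraries: it was at 2.78 ± 0.31 in HRS legs (SD, n = 5) and 1.68 ± 0.17 in HRS-MBP libraries (n = 2), against 3.38 ± 0.21 in contralateral legs (n = 5) and 3.78 ± 0.29 in PBS-only legs (n = 4). Of the 7 HRS libraries, 6 lay below all 9 PBS libraries. *Ces1d* had 0.16 ± 0.82 in HRS legs, 1.27 ± 0.83 in contralateral, 1.54 ± 0.65 in PBS-only and 0.06 ± 0.06 in HRS-MBP libraries, with 4 of 7 HRS libraries below all PBS libraries. The PBS leg of m866 had the lowest *Ces1d* of the PBS libraries on this scale, 0.03.

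*Fasn* was near level with the adipocyte genes, at 2.22 ± 0.52 in HRS legs and 2.01 ± 0.68 in contralateral legs, but 1.39 ± 0.56 in HRS-MBP against 2.61 ± 0.36 in PBS-only libraries. *Lep* was -2.19 ± 0.39 in HRS legs and -1.63 ± 0.51 in contralateral legs, with overlapping ranges. The other 3 genes had log2 fold changes of -0.27 (*Pparg*), -0.84 (*Fabp4*) and -1.07 (*Lipe*) between HRS and contralateral legs. Their falls were smaller than those of the 3 subtracted genes, so that on the scale of the difference their means come out higher in HRS legs. *Pparg* was at -1.02 ± 0.91 in HRS legs against -2.62 ± 0.44 in contralateral legs, *Fabp4* at 3.84 ± 0.79 against 2.80 ± 0.39, and *Lipe* at 1.12 ± 0.97 against 0.31 ± 0.45, but the ranges of *Fabp4* (2.696 to 4.80 in HRS legs, 2.16 to 3.24 in contralateral legs) and *Lipe* (0.40 to 2.72, -0.38 to 0.82) overlapped. For each of the 3 genes the HRS leg of m864 had the highest value. The levels of macrophage genes, which moved in the same libraries, are given above, and their part in these 3 values was not tested.

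**Figure D4:**
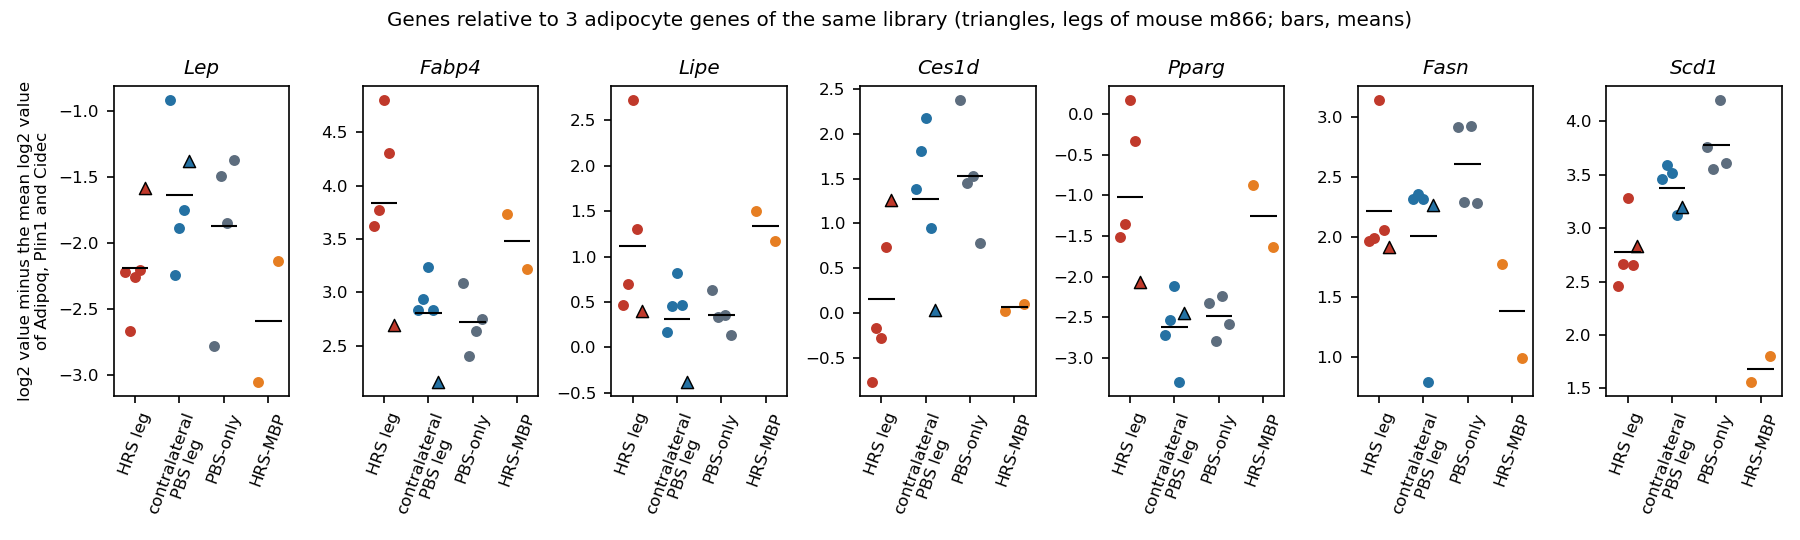
Log2 level of 7 genes minus the mean log2 level of *Adipoq*, *Plin1* and *Cidec* in the same library, by group; points are libraries, triangles the legs of m866, bars group means. *Scd1* averages 2.78 in HRS and 1.68 in HRS-MBP libraries against 3.38 and 3.78 in the PBS groups, while *Pparg* averages -1.02 in HRS legs and -2.62 in contralateral legs.

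The PBS leg of m866 had 3.33 times (*Ces1d*) to 13.4 times (*Lep*) the median of the other 4 contralateral legs, with 8.13 for *Adipoq*, 9.17 for *Plin1*, 9.07 for *Cidec*, 13.2 for *Pparg*, 12.1 for *Fasn* and 7.91 for *Scd1*. Over the highest of the other 8 PBS libraries it was still 2.23 times (*Ces1d*) to 6.97 times (*Pparg*) higher. All 10 genes exceeded that highest library by more than 2-fold and 8 by more than 4-fold, beside 288 (1.75%) and 60 of the 16414 tested genes, respectively. The 10 genes were chosen with the high level of this leg known, so that their counts follow from that choice and no reading is drawn. This leg is also where *Pparg* and the regulator *Cebpa* were high: *Cebpa* had 200 normalized counts there, against 22.4 to 31.5 in the other contralateral legs. Of 18 adipocyte marker genes other than the members, 16 had their highest PBS value in this leg, beside 22.5% of all tested genes. The median over these markers was 7.71 times the median of the other PBS libraries, and their summed level was 1.57 times it. *Cfd*, the adipocyte protease adipsin, had 2220 against 163 to 367 in the other contralateral legs.

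Other cell markers in that leg were as follows. The 6 peripheral nerve genes were all highest there, with a sum of 631 against 140 to 352 in the other 8 PBS libraries, and muscle fibre genes were lowest (109166 against 133518 to 174923). Macrophage genes (247, others 102 to 269) and endothelial genes (410, others 334 to 387) lay within or near the other libraries. *Ucp1*, the defining gene of brown fat, was listed at 0 there, and at most 0.0893 in any library. *Cidea*, of the same thermogenic list, had 3.29 there against 0.142 to 0.970 in all other libraries. Of the 8 thermogenic genes, 2 were highest there among the PBS libraries. Epidermal keratins were instead high in the PBS leg of m864, where *Krt10* had 59.1 against 1.37 to 3.08 in all other libraries and *Krt5* 24.6 against at most 2.92; that leg had the lowest *Scd1* of the contralateral group. The part of these tissues in the levels of the 10 genes was not tested.

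Further genes were grouped in lists to place the 10. Among 18 tested adipocyte marker genes other than the members, 11 fell and 0 rose between HRS and contralateral legs, with a median log2 fold change of -1.36, beside a median of 0.08 over all genes, of which 6.27% were called lower and 16.9% higher. These shares are 1029 and 2781 genes, and the split moved with the scaling: 322 and 4172 genes with libraries rescaled to the same total, and 1632 and 2093 after quantile normalization. The steepest were *Cfd* (-2.23 ± 0.67, limma adjusted p = 0.0101), *Retn*, the hormone resistin (-2.21 ± 0.70, adjusted p = 0.0129) and *Adig*, adipogenin (-2.12 ± 0.58, adjusted p = 0.00582). Against PBS-only mice 5 fell, beside 963 of all genes, with a median of -1.11. Without both legs of m866 the counts were 11 and 12, beside 1748 and 1532 of all genes. Without only the PBS leg of m866, 8 fell between HRS and contralateral legs, with a median of -0.89, and *Cfd* was at -1.62 and *Retn* at -1.60. These lists were written with results of these libraries known, and their direction is no independent evidence.

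Of 18 tested genes of fatty acid and triglyceride synthesis, 5 fell and 1 rose, beside 6.27% and 16.9% of all genes, with a median of -0.61. *Dgat2*, which adds the last acyl chain to triglyceride, fell by 2.26 ± 0.50 (limma adjusted p = 0.0017), the NADPH-producing malic enzyme *Me1* by 1.72 ± 0.33 (adjusted p = 0.000682) and the phosphatidate phosphatase *Lpin1* by 1.65 ± 0.34 (adjusted p = 0.00102) on the log2 scale. The other 2 were *Acacb* and *Acss2*. Several steps next to *Fasn* did not pass: *Acly* was at -0.21 ± 0.46 and *Acaca* at -0.99 ± 0.44. Of 19 lipolysis and droplet genes, 7 fell and 0 rose (median -0.79), led by *Pnpla3* (-2.10 ± 0.43, adjusted p = 0.00114), the beta3-adrenergic receptor *Adrb3* (-1.97 ± 0.67, adjusted p = 0.0188) and *Plin5* (-1.95 ± 0.45, adjusted p = 0.00221). *Adrb3* was at -1.29 without the PBS leg of m866. *Plin5* is the droplet coat protein of oxidative tissue, muscle included. The muscle fibre list fell in 4 of 8 genes (median -1.14), and its part in these values was not tested. *Plin2*, the coat protein found in most cell types, was at 0.90 ± 0.22 and did not pass the threshold on fold change, but rose against PBS-only legs in HRS legs (1.12 ± 0.23, limma adjusted p = 0.0011) and HRS-MBP libraries (1.23 ± 0.30, adjusted p = 0.00347). Without both legs of m866, 6 synthesis genes fell and 4 rose, and 8 droplet genes fell and 1 rose. Of all genes, 1748 fell and 3474 rose in that setting, against 1029 and 2781 in the main fit. With each library rescaled to the same total, the counts were 4 and 4, and 4 and 1, beside 322 and 4172 of all genes.

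Among 22 regulators of adipogenesis and lipogenesis, 4 fell and 1 rose, beside 6.27% and 16.9% of all genes, with a median of -0.02. *Klf15* (-1.62 ± 0.32, limma adjusted p = 0.000917) and *Mlxipl*, the carbohydrate response factor ChREBP (-1.23 ± 0.23, adjusted p = 0.000564), fell with *Ppargc1a* and *Thrb*. *Dlk1*, a preadipocyte and regenerating muscle gene, rose (3.64 ± 0.79, adjusted p = 0.00151). It was at 4.65 without both legs of m866 and 3.67 without only its PBS leg. Between HRS-MBP libraries and PBS-only legs the highest value of the 22 regulators, *Dlk1* included, was 1.02. *Srebf1*, the sterol response factor that acts on *Fasn* and *Scd1*, was at -0.32 ± 0.21 and *Cebpa* at 0.26 ± 0.45, neither passing. In the thermogenic list (6 tested), *Dio2* rose (2.15 ± 0.45, adjusted p = 0.00131) and *Ppargc1a* fell (-1.12 ± 0.31, adjusted p = 0.00569), while *Cidea* was at -0.52 ± 0.37. Of 8 fibro-adipogenic progenitor genes 3 rose (*Ly6a* 1.81 ± 0.25, adjusted p = 5.25e-05, *Lum* 1.75 ± 0.33 and *Col15a1* 1.18 ± 0.32), beside 16.9% of all genes, and 0 fell, with a median of 0.91. Macrophage genes rose in 7 of 7, led by *Adgre1* (4.13 ± 0.34), *Lyz2* (4.06 ± 0.39) and *Cd68* (3.603 ± 0.47), and lymphocyte genes in 6 of 6, led by *Cd4*, *Cd8a* (2.76 ± 0.40) and *Cd3e* (2.11 ± 0.33). In the muscle fibre list *Myh2* (-1.62 ± 0.52), *Pygm* (-1.36 ± 0.39) and *Ckm* (-1.18 ± 0.48) fell most. Endothelial and nerve genes rose in 0 of 7 and 0 of 6 and fell in none, and of 4 tested skin genes *Krt5* fell (-1.90 ± 0.76, adjusted p = 0.0404), a call made in 13 of 28 alternatives. Without the keratin-rich PBS leg of m864, *Krt5* was at -1.02 and was not called, and without the PBS leg of m866 it was at -1.93, also not called.

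**Figure D5:**
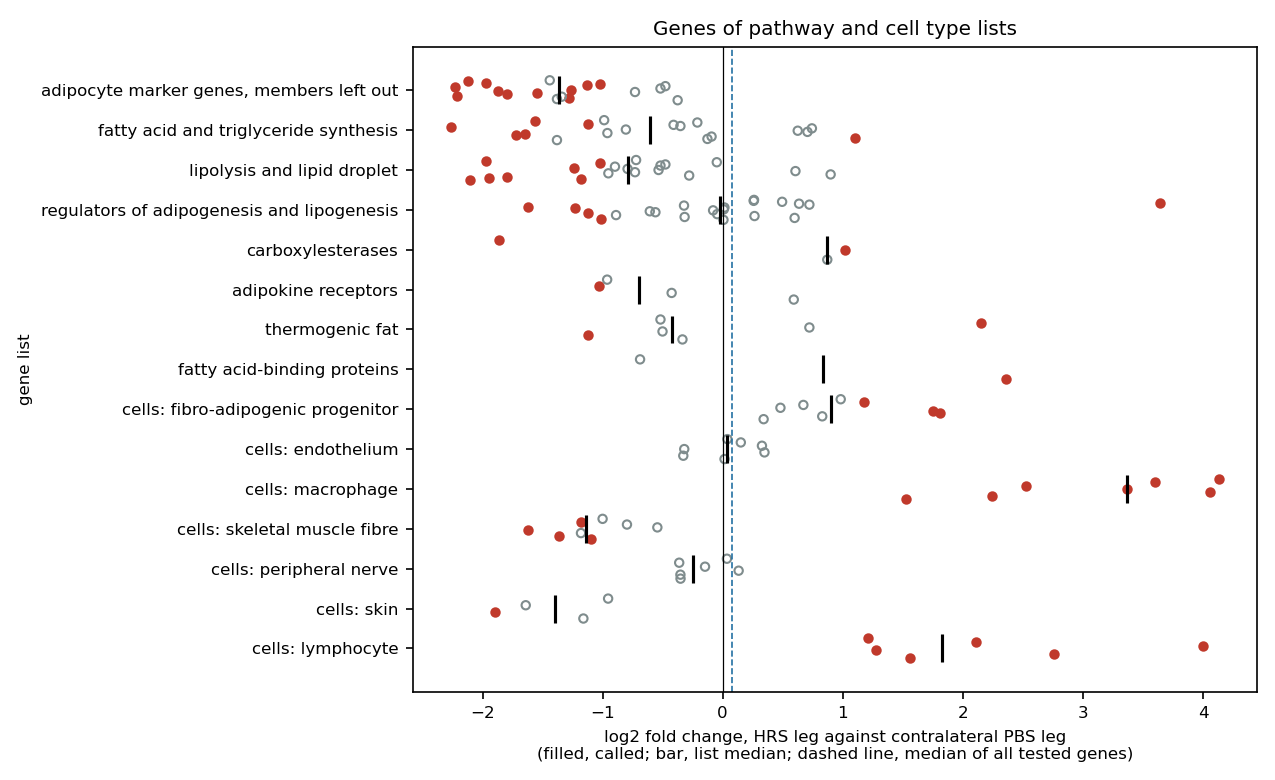
Log2 fold change between HRS and contralateral PBS legs (log2(normalized count + 0.5)) of the genes of 15 lists; filled points passed both thresholds, open points did not, black bars are list medians, and the dashed line is the median of all tested genes (0.08). The adipocyte markers have a median of -1.36, and the macrophage markers of 3.37.

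Receptors for the adipocyte hormones were measured in the same muscle. The adiponectin receptor *Adipor2* fell by 1.03 ± 0.19 on the log2 scale (limma adjusted p = 0.000563) and lay at 75.4 to 93.2 normalized counts in 4 HRS legs, 181 in the HRS leg of m866 and 182 to 252 in contralateral legs. *Adipor1* was at -0.96 ± 0.20 (adjusted p = 0.00102), just inside the fold threshold. Without both legs of m866 they were at -1.17 and -1.26, and both passed. Without only the PBS leg of m866, *Adipor2* was at -0.95 and was no longer called, and it was called in 22 of 29 alternatives. The T-cadherin receptor *Cdh13* was at -0.43 ± 0.15 and the leptin receptor *Lepr* at 0.59 ± 0.19 (adjusted p = 0.0226 and 0.0131), both under the fold threshold.

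Near copies of the genes were mixed in direction. *Scd2*, a desaturase gene close to *Scd1* in sequence, rose (1.10 ± 0.30, limma adjusted p = 0.00615), with 127 to 151 normalized counts in 4 HRS legs, 59.1 in the HRS leg of m866 and 37.9 to 54.9 in the contralateral legs of m862 to m865. The PBS leg of m866 had 119, and without both legs of this mouse the value was 1.62. *Scd3* and *Scd4* stayed at or under 1.39 and 0.487 in every library, and the highest *Scd3* was in the keratin-rich PBS leg of m864. *Ces1f*, a neighbour of *Ces1d* in sequence, fell (-1.86 ± 0.70, adjusted p = 0.0309) and had 47.3 in the PBS leg of m866 against 1.99 to 4.40 in the other contralateral legs. Without that leg *Ces1f* was at -1.07, and it was called in 22 of 29 alternatives, with a value of 0.22 in 1 of them (the adipocyte marker covariate). *Ces1a* and *Ces1e* were at most 0.107 and 0.462, and the other *Ces1* genes were not analysed here. *Ces2c* rose (1.02 ± 0.23, adjusted p = 0.00209), just past the fold threshold, and was called in 20 of 28 alternatives. *Fabp5*, the fatty acid-binding protein of macrophages and epidermis, rose by 2.36 ± 0.50 (adjusted p = 0.0014), with 33.8 to 66.5 in 4 HRS legs, 7.695 in the HRS leg of m866 and 4.15 to 14.4 in contralateral legs, whereas *Fabp4* did not pass the test in either direction. Reads shared between near copies may have been split by the authors' quantification.

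Over the 16 libraries, the genes most like *Adipoq* by Pearson's r of log2 levels were *Cdo1* (0.989), *Retn* (0.989), *Cfd* (0.988), *Plin1* (0.987) and *Lgals12* (0.987), and without the PBS leg of m866 all 5 stayed at 0.977 or higher over 15 libraries. *Cidec* ranked 8th and *Lep* 11th among the tested genes. Those most like *Scd1* were *Klhdc7a* (0.979), *Adrb3* (0.973), *Tmem45b* (0.970), *Retn* (0.966) and *Aldh1a7* (0.965), and 0.952 or higher without that leg, where *Tmem45b*, *Retn* and *Aldh1a7* ranked 12th, 27th and 11th. *Pparg* had r = 0.74 with *Adipoq* over 16 libraries and 0.44 over 15, so its likeness rested on the PBS leg of m866. *Lipe* had 0.92 and 0.87, *Fabp4* 0.94 and 0.92, and *Ces1d* 0.87 and 0.88. The libraries share group differences and mice, and these values are a description.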

How the data were processed

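RNA of hamstring muscle (poly(A) selected, directional libraries) from 9 mice was sequenced in 16 libraries. Values are normalized counts as the authors deposited them (unit: signal, never below 0). The submitters' processing notes name STAR 2.7.8a, limma and GRCm39, with no role given, whereas 98.9% of the 25652 genes matched by symbol and chromosome had the start and end of GENCODE M21 (GRCm38); coordinates are those of the deposited table and belong to GRCm38. Totals differed between groups: 726797 to 1162004 in HRS legs (the highest in m866, the next 871400) and 805943 to 828943 in HRS-MBP libraries. They were 958741 to 1252358 in contralateral and 1042703 to 1201649 in PBS-only legs, so that the scale goes with the treatment. A share of 74.9% to 77.0% of the low values lay within 0.02 of a whole number of reads. This is too few to recover reads, and count models were therefore not run. Implied depth is total divided by step. Intervals and the 3-read floor cover counting error or the spread between libraries only. All 16 value columns were used.

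A pseudocount of 0.5 was added before taking log2, genes averaging under 0.5 over the libraries were dropped (16414 stayed), and the rest were fitted with limma 3.58.1 in R 4.3.3 (lmFit, eBayes with trend). A fit of 4 groups gave 5 comparisons, and a fit of 2 groups gave 7 HRS against 9 PBS libraries. Adjusted p is Benjamini-Hochberg over all tested genes, and a gene was called at 0.05 and an absolute log2 fold change above 1. Fold changes on this scale understate those of low genes. The steps were first tested on simulated data. The 10 genes and all lists were chosen with earlier results of these data known. Genes named were the 10, adipokine receptors, near copies (*Scd*, *Ces1*), the 3 called genes of each list with the largest change between HRS and contralateral legs, and the 5 genes most like *Adipoq* and *Scd1*; *Cebpa*, *Srebf1*, *Acly*, *Acaca*, *Acacb*, *Acss2*, *Plin2*, *Cidea*, *Ppargc1a*, *Thrb*, *Ucp1* and *Krt10* were named after their values were seen.

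Legs with the same mouse number come from the same animal by the labels, so the numbers pair the samples. Across genes, deviations from the group mean correlated between the legs of a mouse at 0.12, 0.16, 0.097, -0.026 and -0.37 in m862 to m866. Nothing in the labels says which library was run on which sequencer. Also tried were another pseudocount, filter, scaling and prior, averaged legs, a replicate block, the mean of 18 adipocyte markers as a covariate and each library left out; leaving out both legs of m866 was chosen after seeing the data.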

Additional observations from a re-analysis of the deposited data

Results flagged for a closer look

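In groups of 4 or 5 libraries, a library was noted where its gap to the nearest other took most of the group's range by Dixon's criterion. For normally distributed values chance meets it in about 1 of 20 groups, and here it was applied to normalized counts without a log. The genes move together and were chosen with the high levels of the PBS leg of m866 known, so that the following is a description of that leg and no test. Of 30 gene and group combinations 12 met it, 10 of them through the PBS leg of mouse m866. That leg had 343.8 normalized counts of *Adipoq*, 124 of *Lep*, 391.1 of *Plin1*, 252 of *Cidec*, 1451 of *Fabp4*, 249.1 of *Lipe*, 331.4 of *Ces1d*, 59.21 of *Pparg*, 1563 of *Fasn* and 2970 of *Scd1*, and its gap, as a share of the group's range, was 0.841 (*Lep*) to 0.955 (*Pparg*). The HRS leg of the same mouse stood above the other HRS legs in *Lep* (13.31) and *Ces1d* (98.96). No PBS-only library met the criterion.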

How the results depend on the processing

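Between HRS and contralateral legs, 24 to 29 of 29 alternatives kept the direction of each of the 10 genes. *Ces1d* ranged from -3.65 to -1.30 and *Scd1* from -2.87 to -0.53 on the log2 scale. *Pparg* turned positive in 5, *Ces1d* and *Scd1* in none, and the others in 1, the adipocyte marker covariate. With that covariate the values were 0.11 for *Adipoq*, 0.15 for *Lep*, 0.41 for *Plin1*, 0.31 for *Cidec*, 0.17 for *Lipe* and 0.21 for *Fasn* in this comparison (all reversed), and 0.11 for *Adipoq*, 0.16 for *Lep*, 0.26 for *Plin1* and 0.49 for *Cidec* for HRS against all PBS. No call of a lower level held for any of the 10 genes between HRS and contralateral legs. By construction this covariate removes what the genes share with 18 other adipocyte markers. Rescaling libraries to the same total moved the median of all genes from 0.08 to 0.45. Relative to it all 10 genes stayed lower, with *Scd1* at -2.06 and *Pparg* at 0.11, and 3 genes were called. Rescaled, 2 were called lower against PBS-only mice (beside 372 of all genes) and 6 for HRS against all PBS (beside 404). Counts over all genes between HRS and contralateral legs were 3810, and 3772 with mouse as a random replicate block and 3652 with a fixed one. They were 3032 to 4855 without single libraries. Contralateral against PBS-only legs gave 1 call, and 0 at a smaller pseudocount, without the filter, rescaled, with averaged legs or with the covariate, 2 after quantile normalization, 3 without both legs of m866 and 0 to 2 without single libraries. HRS-MBP against HRS legs gave 76 calls, 35 with a minimum mean of 2, 49 with averaged legs, 208 without both legs of m866 and 25 to 590 without single libraries (590 without the HRS leg of m864, 180 without that of m866, 135 without m860 and 25 without m861). The causes were not tested. The shallowest library (8595360 reads) limits the lowest values, such as *Scd3*, *Scd4* and *Ces1a*.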
